A study of Mus musculus with 10 samples.

Results

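Genes switched on by interferon were followed in the lungs of newborn ICR mice that breathed extra oxygen. Such exposure is used to model bronchopulmonary dysplasia, in which the lungs of babies born too early stay simplified after oxygen therapy. The set was a named list of 43 genes that answer to type I interferon or to interferon gamma. Each gene was taken from array probe sets whose annotation gave exactly that symbol, the brightest probe set standing for the gene. By this rule 41 of the 43 genes were measured, and all 41 passed the filter on dim genes, among 14988 genes tested in all. Oas3 passed that filter, a log2 value of 5 on 2 arrays, only through both P29 room-air arrays, so its lower value in the other groups was favoured by the filter. Counts are therefore also given over the other 40 genes. Isg15 has no value because its probe set was annotated with a further gene symbol, and Ifi44 has none because no probe set carried its symbol alone.

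Total lung RNA was hybridised to 10 Affymetrix mouse expression arrays in 4 groups. Pups were pooled within hours of birth and divided at random between 80% oxygen and room air, and dams were exchanged daily between the chambers. The groups were hyperoxia to postnatal day 29 (P29, 3 arrays), room air to P29 (2 arrays), hyperoxia to postnatal day 14 (P14, 3 arrays) and room air to P14 (2 arrays). The room-air mice are labelled wild type and the hyperoxia mice BPD. No transgene or other allele is named for either, and both carried the outbred ICR background. Whether an array stands for 1 animal is not stated, so the p-values rest on a spread between arrays that may be technical. The 10 arrays limit the precision of every value.

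Interferons are signalling proteins that a cell releases after it senses viral or misplaced nucleic acid. Type I and type III interferons act through the kinases Jak1 and Tyk2 on a complex that holds Stat2 and Irf9 and binds the interferon-stimulated response element (ISRE) of target promoters. Interferon gamma, made mainly by T and natural killer cells, acts through the gamma-activated site (GAS) and raises Irf1, the immunoproteasome, the peptide transporters of antigen presentation and the GTPases that attack vacuoles of intracellular microbes. In the lung, basal activity of these genes is known to depend on resident immune cells, epithelium and endothelium and on contact with microbes.

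All values are log2 intensities that the authors deposited, and differences are on this scale. A gene was called where its adjusted p, from a limma model of all 10 arrays, was under 0.05, and errors are standard errors (SE) of the fitted difference. Arrays of 1 group correlated at r = 0.993 to 0.996 across genes. The lung epithelial markers had a mean log2 value of 13.03 to 13.93 on every array, which matches the labelled tissue. The actin control, whose 3′ minus 5′ difference is often read as a measure of RNA integrity, read 1.33 to 2.21 on hyperoxia arrays and 0.32 to 0.74 on room-air arrays. The Gapdh control difference was also higher on every hyperoxia array, at 0.48 to 1.11 against -0.14 to 0.12. So were the hybridisation controls (11.34 to 11.57 against 10.65 to 10.85) and 18S ribosomal RNA (8.65 to 9.83 against 7.37 to 7.89). Atmosphere and the state or handling of the RNA and arrays therefore cannot be told apart. The part of the actin difference was not tested beyond the fits with it as a term, and that of the other controls was not tested. Xist was low and Y-linked transcripts high on all P14 arrays and on P29 hyperoxia replicate 1, the reverse held on P29 hyperoxia replicate 2 and both P29 room-air arrays, and P29 hyperoxia replicate 3 carried both. In whole-lung RNA, fewer cells of a type and less RNA per cell cannot be told apart.

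The promoters of the members were searched for the 2 motifs through which interferon acts. Of the 41 genes measured, 31 had a promoter window in the RefSeq table (GRCm38.p6, 250 bases before to 50 after the start). The ISRE core, GAAA then any 2 bases then GAAA on either strand, was present in 16 of 31 members (51.6%), against 3.99% of the 27025 genes with a window. The GAS core, TTCNNNGAA, which reads the same pattern on both strands, was present in 12 of 31 members (38.7%), against 9.55% of those genes. Below are the 180 bases before the start of 4 genes that were higher in hyperoxia at P14 (Ifit1, Ifit3, Gbp2 and Gbp3) and of 4 that were lower at P29 (Oas3, Irgm2, Psmb8 and Irf1). These 8 genes were picked by name, and of a gene's listed starts the one with the most matches is shown. That all 8 hold a match therefore does not describe the set. Gbp2 was also called lower at P29, and the call of Oas3 was favoured by the filter. Capitals mark the matches, 5′ to 3′ on the gene's strand. In the first group they are ISRE cores, in Oas3 an ISRE core, in Irgm2 a GAS core and then an ISRE core, and in Psmb8 and Irf1 a GAS core.
Ifit1 chr19:34640709-34640888, plus strand: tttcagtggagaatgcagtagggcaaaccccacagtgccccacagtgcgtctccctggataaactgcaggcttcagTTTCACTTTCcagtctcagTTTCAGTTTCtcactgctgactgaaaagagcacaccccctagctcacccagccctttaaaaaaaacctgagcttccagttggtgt
Ifit3 chr19:34583349-34583528, plus strand: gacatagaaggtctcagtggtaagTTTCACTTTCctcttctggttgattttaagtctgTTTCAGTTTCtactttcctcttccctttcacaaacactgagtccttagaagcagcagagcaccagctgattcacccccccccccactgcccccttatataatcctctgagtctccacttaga
Gbp2 chr3:142620483-142620662, plus strand: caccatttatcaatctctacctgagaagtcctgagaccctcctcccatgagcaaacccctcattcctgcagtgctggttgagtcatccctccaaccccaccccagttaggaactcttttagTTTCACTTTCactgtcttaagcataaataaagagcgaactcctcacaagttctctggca
Gbp3 chr3:142559864-142560043, plus strand: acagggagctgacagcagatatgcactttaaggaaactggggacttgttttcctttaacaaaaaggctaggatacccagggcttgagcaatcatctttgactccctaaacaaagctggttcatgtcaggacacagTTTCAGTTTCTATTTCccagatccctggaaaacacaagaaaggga
Oas3 chr5:120777660-120777839, minus strand: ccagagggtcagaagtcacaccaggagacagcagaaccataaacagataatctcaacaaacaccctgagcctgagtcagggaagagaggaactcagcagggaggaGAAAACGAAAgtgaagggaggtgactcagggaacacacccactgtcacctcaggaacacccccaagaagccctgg
Irgm2 chr11:58214797-58214976, plus strand: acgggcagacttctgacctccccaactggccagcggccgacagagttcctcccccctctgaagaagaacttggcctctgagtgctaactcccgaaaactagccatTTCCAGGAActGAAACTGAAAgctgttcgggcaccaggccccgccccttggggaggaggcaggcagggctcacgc
Psmb8 chr17:34198015-34198194, plus strand: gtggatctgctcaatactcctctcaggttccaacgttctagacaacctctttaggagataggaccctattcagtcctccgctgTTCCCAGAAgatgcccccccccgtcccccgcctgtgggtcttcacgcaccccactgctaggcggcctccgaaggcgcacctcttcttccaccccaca
Irf1 chr11:53769834-53770013, plus strand: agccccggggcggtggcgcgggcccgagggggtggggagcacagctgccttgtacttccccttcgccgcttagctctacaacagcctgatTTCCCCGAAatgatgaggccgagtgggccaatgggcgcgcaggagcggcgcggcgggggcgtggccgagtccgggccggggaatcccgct
Ifit1 and Ifit3, neighbours on chromosome 19, each hold 2 ISRE cores in this stretch, and Gbp3 holds 2 that overlap. A match is a description of the letters and not a binding site. Among members called higher in hyperoxia at P14, 7 of 11 with a window held the ISRE core, and among those called lower at P29 it was 6 of 15. The GAS core was in 5 of 11 and in 6 of 15 of the same genes.

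**Figure D1:**
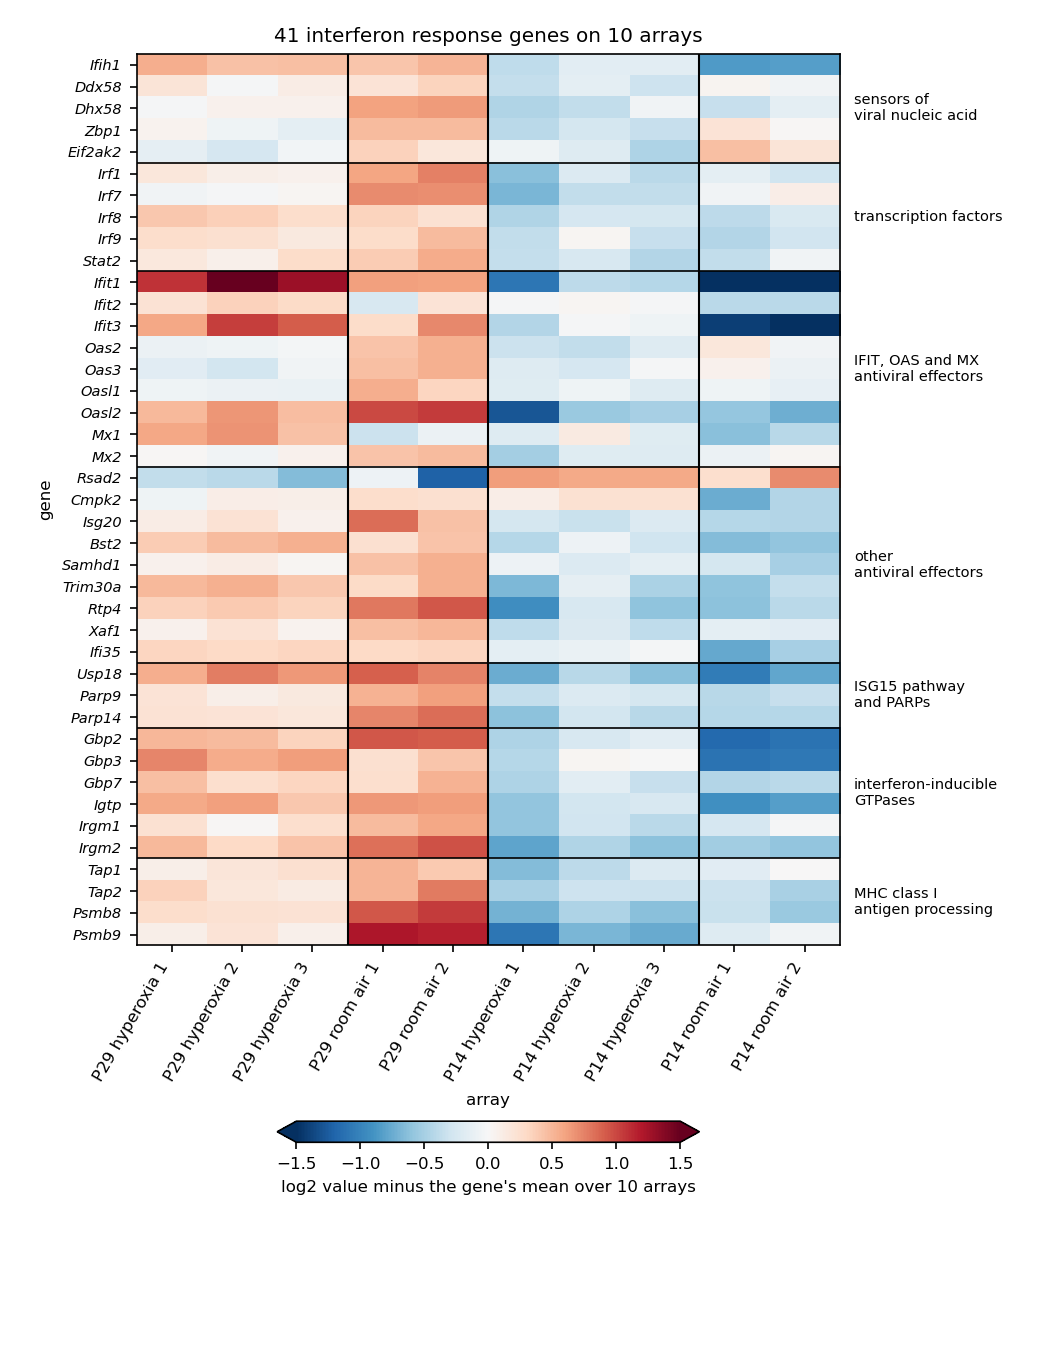
Log2 value of each of the 41 measured genes (rows, by role) on each of the 10 arrays (columns, by group), minus the gene's mean over all arrays; red is above and blue below that mean. Most genes are red on the 5 P29 arrays and blue on the 5 P14 arrays, with Rsad2 reversed.

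The main feature of the set was age. In room air 38 of 41 genes were higher at P29 than at P14, against 22.2% of all genes tested, and 1 was lower, against 19.1%. The median difference was 0.87, and 0.01 over all genes tested. In hyperoxia 33 of 41 were higher at P29, against 15.4% of all genes, and 1 was lower, against 11.7%, with a median of 0.59 and again 0.01 over all genes. Without Oas3 the counts higher were 37 of 40 in room air and 33 of 40 in hyperoxia. Of all genes, 41.3% were called in either direction in room air and 27.1% in hyperoxia. The P29 and P14 arrays did not overlap for 39 genes upwards in room air and 36 in hyperoxia, where 36% and 25.3% of all genes did the same. Downwards it was 1 gene in each atmosphere, as for 33% and 20% of all genes. All 5 transcription factors, all 6 interferon-inducible GTPases, all 4 antigen processing genes and all 3 measured genes of the ISG15 and PARP group were called higher at P29 in both atmospheres. Among these the Irf9 call in hyperoxia was lost without P14 hyperoxia replicate 1 (0.37) or 3 (0.38). The smallest rises also rested on single arrays, those of Ddx58, Zbp1, Ifit2 and Oas2 in room air (lost without P14 room-air replicate 2, at 0.24, 0.25, 0.39 and 0.31, and for Ifit2 also without P29 room-air replicate 2, at 0.17) and of Dhx58, Zbp1 and Mx2 in hyperoxia (lost without P14 hyperoxia replicate 1, at 0.25, 0.25 and 0.20). In room air the P29 RNA was female by its transcripts and the P14 RNA male, so age and sex of the RNA cannot be told apart there. The P29 hyperoxia mice had also been exposed for longer than those of P14, so age and length of exposure cannot be told apart in hyperoxia. In hyperoxia, P29 replicate 1 shared the male pattern of the P14 arrays. With this lone array for P29 the median difference was 0.58, and -0.001 over all genes. Fewer members, and fewer of all genes, were called than with all P29 hyperoxia arrays. That setting was added once the data had been seen. With replicate 2 alone, the array of female pattern, the median was 0.54, and 0.02 over all genes, again with fewer called.

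Ifit1, which binds viral RNA that lacks the cell's own cap marks, showed the largest rise with age. It read 9.36, 9.97 and 9.56 in P29 hyperoxia, 8.89 and 8.88 in P29 room air, 7.19, 7.88 and 7.85 in P14 hyperoxia and 6.43 and 6.71 in P14 room air. Each group stood clear of the next in that order. The P29 minus P14 difference was 2.31 ± 0.23 in room air, a 4.98-fold rise (adjusted p = 1.37e-05), and 1.99 ± 0.19 in hyperoxia (adjusted p = 3.57e-05). Its partner Ifit3 rose by 2.00 ± 0.18 in room air (adjusted p = 7.75e-06) and by 1.02 ± 0.15 in hyperoxia (adjusted p = 0.000619). Usp18, the protease that strips ISG15 from proteins and damps the type I receptor, rose by 1.74 ± 0.13 in room air (adjusted p = 1.72e-06) and 1.25 ± 0.11 in hyperoxia (adjusted p = 1.68e-05). Oasl2, an OAS-like protein, rose by 1.68 ± 0.21 and 1.32 ± 0.17 in the same pair of comparisons (adjusted p = 6.39e-05 and 0.000234).

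The GTPases rose together with age, by 0.66 to 2.06 in room air and 0.59 to 1.02 in hyperoxia. Gbp2, a guanylate-binding protein that coats microbe-containing vacuoles, had the steepest rise of the group in room air, 2.06 ± 0.11 or 4.16-fold (adjusted p = 1.92e-07). The immunity-related GTPases Igtp and Irgm2 rose there by 1.51 ± 0.12 and 1.44 ± 0.11 (adjusted p = 2.84e-06 and 2.37e-06). Antigen processing followed: the immunoproteasome subunits Psmb8 and Psmb9, which change the peptides cut for MHC class I, rose by 1.45 ± 0.11 and 1.31 ± 0.12 in room air (adjusted p = 1.45e-06 and 9.37e-06). Tap2, a chain of the peptide transporter, rose by 1.04 ± 0.12 (adjusted p = 4.26e-05), and its partner Tap1 by 0.54 ± 0.13 (adjusted p = 0.00681). The Tap1 rise in room air was not called without P14 room-air replicate 1 (0.45).

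Rsad2 was the exception. This gene encodes viperin, an enzyme that makes a nucleotide which stops viral RNA synthesis. It read 8.66, 8.62 and 8.37 in P29 hyperoxia, 8.95 and 7.81 in P29 room air, 9.65, 9.59 and 9.59 in P14 hyperoxia and 9.28 and 9.73 in P14 room air. Every P29 array lay below every P14 array, although the P29 room-air pair differed from each other by more than 1 log2 unit. The P29 minus P14 difference was -1.13 ± 0.28 in room air (adjusted p = 0.00697, not called without P14 room-air replicate 2, at -0.91, and called at -0.56 without P29 room-air replicate 2 and at -1.70 without P29 room-air replicate 1) and -1.06 ± 0.23 in hyperoxia (adjusted p = 0.00568). Its other probe sets moved the same way, by -0.96 and -0.28 in room air and -1.20 and -0.91 in hyperoxia. Cmpk2, a mitochondrial nucleotide kinase that lies beside Rsad2 on chromosome 12, had differences of 0.84 ± 0.11 in room air (adjusted p = 0.000109) and -0.14 ± 0.09 in hyperoxia (adjusted p = 0.292). Eif2ak2, the kinase PKR that halts translation when it binds viral RNA, was called in neither atmosphere, at -0.06 ± 0.14 and 0.10 ± 0.11. Mx1 was called in hyperoxia (0.64 ± 0.11, adjusted p = 0.00165) and not in room air (0.32 ± 0.14, adjusted p = 0.0846).

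**Figure D2:**
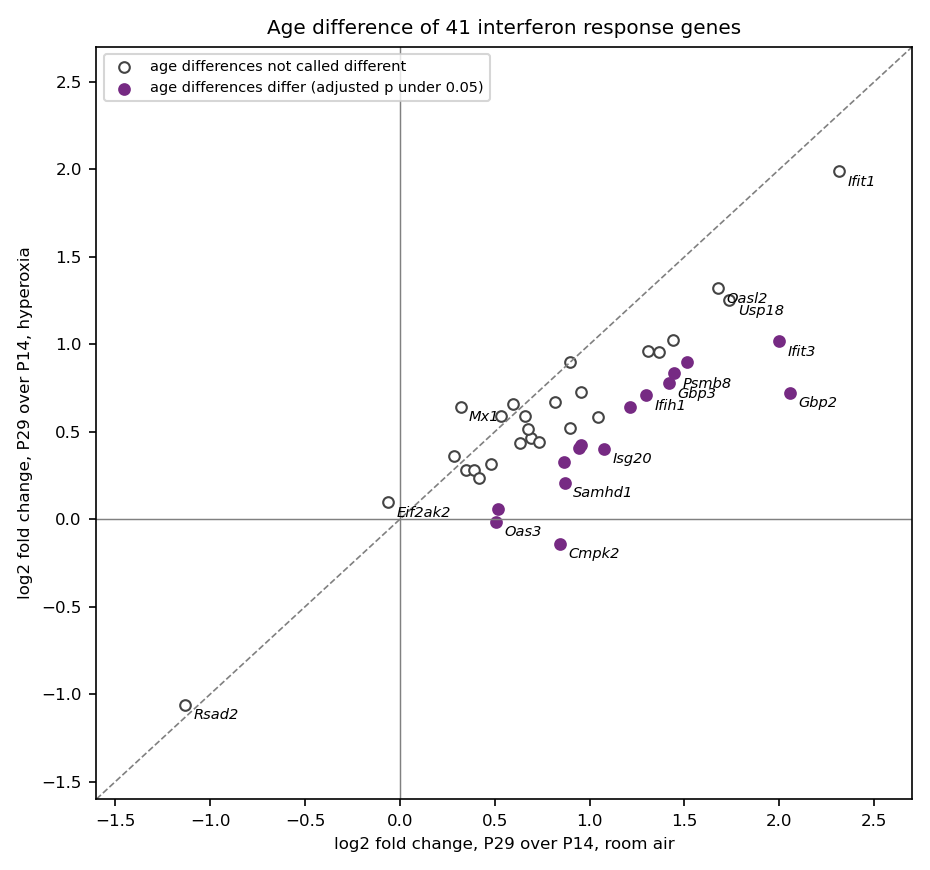
Log2 difference P29 minus P14 of each gene in room air (horizontal) and in hyperoxia (vertical), with the line of equal difference dashed; filled points are genes whose age differences differ by limma at an adjusted p under 0.05. Nearly all points lie right of 0 and above 0, and 34 of 41 lie below the dashed line.

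At P29 most of the set was lower in hyperoxia. In hyperoxia 23 of 41 genes were lower than in room air, against 25.6% of all genes tested, 3 were higher, against 34.2%, and 15 were not called. Without Oas3 it was 22 of 40 lower. Of all genes, 59.7% were called in either direction. The median was -0.36, and 0.04 over all genes. Sex of the RNA was not balanced here. The room-air arrays carried the female pattern, and of the hyperoxia arrays only replicate 2 shared it without the male pattern. With replicate 2 as the lone hyperoxia array the median was -0.38, and 0.07 over all genes. The part of sex was not tested further. The hyperoxia arrays lay wholly below the room-air arrays for 28 genes, as for 33.1% of all genes, and wholly above for 4, as for 41.2%. Lower genes were spread over every role, namely 3 of 5 sensors, 3 of 5 transcription factors, 5 of 9 IFIT, OAS and MX genes, 4 of 9 other antiviral effectors, 2 of 3 ISG15 and PARP genes, 3 of 6 GTPases and 3 of 4 antigen processing genes. Scaling every array to the same 75th percentile moved the median of all genes to -0.13. It gave 2 higher and 29 lower members, and 37.2% of all called genes were then higher in place of 57.2%. Adding the actin control difference to the model left 0 members higher (1 at an unadjusted p under 0.05) and 11 lower. Of all 14988 genes, 1628 were then called higher and 1277 lower, or 19.4% in either direction. Of the genes called lower without that term, 10 stayed called, namely Dhx58, Irf7, Oas2, Oas3, Oasl2, Mx2, Parp14, Gbp2, Psmb8 and Psmb9.

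The immunoproteasome led the fall at P29. Psmb9 read 8.62, 8.73 and 8.61 in P29 hyperoxia, against 9.74 and 9.70 in P29 room air. All 3 hyperoxia arrays lay about 1 unit below both room-air arrays, a difference of -1.07 ± 0.11 or 2.10-fold (adjusted p = 1.89e-05). Psmb8 read 9.65, 9.62 and 9.61, against 10.32 and 10.44 in room air, a difference of -0.76 ± 0.10 (adjusted p = 6.75e-05). Its dimmer second probe set moved by -0.07. Tap2 differed by -0.43 ± 0.11 (adjusted p = 0.00623, not called without P29 room-air replicate 2, at -0.29). Tap1, whose start site lies 226 bases from that of Psmb9 on the opposite strand of chromosome 17, did not pass (-0.29 ± 0.12, adjusted p = 0.0596).

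Among the transcription factors, Irf7, which drives the amplifying wave of type I interferon, fell the most. It read 6.78, 6.82 and 6.87 in P29 hyperoxia, against 7.55 and 7.54 in room air, a difference of -0.72 ± 0.10 (adjusted p = 0.000162). The groups were separated by over 0.6 units, many times their inner spread. Irf1, the interferon-gamma factor, fell by 0.56 on the log2 scale (SE 0.12, adjusted p = 0.00186). Stat2 had a difference of -0.30 ± 0.11 (adjusted p = 0.0364), which was not called without P29 room-air replicate 2 (-0.21) or without hyperoxia replicate 1 (-0.29) or 2 (-0.25). Its second probe set moved by -1.04. Irf8, which specifies dendritic cells and macrophages, was level at 9.49, 9.44 and 9.34 in hyperoxia and 9.42 and 9.31 in room air, and its difference was 0.06 ± 0.09 (adjusted p = 0.604). Irf9 did not pass either (-0.16 ± 0.12, adjusted p = 0.286).

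The sensors split at P29. Dhx58, or LGP2, which tunes the RNA helicase sensors, read 6.0, 6.09 and 6.08 in hyperoxia, against 6.63 and 6.66 in room air, a difference of -0.59 ± 0.11 (adjusted p = 0.00115). Zbp1, the sensor of Z-form nucleic acid that can trigger necroptosis, read 6.32, 6.21 and 6.12 against 6.74 and 6.74, a difference of -0.52 ± 0.09 (adjusted p = 0.00058). Both were separated without overlap. Ifih1, or MDA5, the sensor of long double-stranded RNA, read 9.46, 9.35 and 9.37 in hyperoxia and 9.33 and 9.42 in room air, with no called difference (0.02 ± 0.09, adjusted p = 0.886). Ddx58, or RIG-I, differed by -0.19 ± 0.09 (adjusted p = 0.108), and its other probe sets moved by 0.21 and 0.01. For Eif2ak2 the probe set used read 7.04, 6.93 and 7.14 in hyperoxia against 7.52 and 7.35 in room air, -0.40 ± 0.12 (adjusted p = 0.0162). Its other probe sets moved the opposite way, by 0.34 and 0.27, the mean of all its probe sets gave 0.069 and the actin term 0.15, and the call was lost without P29 room-air replicate 1 (-0.32) or hyperoxia replicate 2 (-0.35). The direction of Eif2ak2 is therefore not settled by these arrays.

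The antiviral effectors did not all move one way at P29. Oas2, Oasl1 and Oasl2 were lower, with differences of -0.48 to -0.54. Oas3, an enzyme whose product activates an RNA-cutting nuclease, read 4.63, 4.53 and 4.75 in hyperoxia, against 5.25 and 5.34 in room air, a difference of -0.66. Its P14 arrays read 4.55 to 4.86, so only the P29 room-air arrays took it past the filter, and its call is not read as support. Oas2 read 6.42, 6.44 and 6.47 against 6.93 and 7.04 (-0.54 ± 0.09, adjusted p = 0.00045). The Oasl2 call (-0.48 ± 0.19, adjusted p = 0.0455) was lost under most omissions of 1 array, with values of -0.45 to -0.54. Of the IFIT genes, Ifit1 was higher by 0.74 ± 0.21 (adjusted p = 0.0108), with all 3 hyperoxia arrays above both room-air arrays. That call was lost without P29 room-air replicate 2, at 0.73. Ifit2, a relative that blocks translation, read 8.97, 9.10 and 9.04 in hyperoxia, against 8.52 and 8.96 in room air, a difference of 0.29 ± 0.11 (adjusted p = 0.0405). The 2 room-air arrays differed by more than this, and without P29 room-air replicate 1 the difference was 0.07 and not called, as it was not without 7 of the other arrays. Ifit3 did not pass (0.35 ± 0.17, adjusted p = 0.0969).

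Mx1 and Mx2 parted. Mx1, a dynamin-like GTPase that traps incoming influenza virus, read 6.66, 6.76 and 6.52 in P29 hyperoxia, against 5.76 and 5.99 in room air, a difference of 0.77 ± 0.13 or 1.71-fold (adjusted p = 0.000353). Mx2 differed by -0.43 ± 0.11 (adjusted p = 0.00467). Both genes are annotated as transcribed pseudogenes in the RefSeq table, which is of C57BL/6J mice; the alleles of these ICR mice were not analysed here. The exonuclease Isg20 read 8.95, 9.06 and 8.90 in hyperoxia against 9.68 and 9.28 in room air (-0.51 ± 0.11, adjusted p = 0.00245). Without P29 room-air replicate 1 the Isg20 difference was -0.30 and still called. Samhd1, which destroys the nucleotides that retroviruses need, read 10.34, 10.38 and 10.30 against 10.71 and 10.81 (-0.42 ± 0.09, adjusted p = 0.00181). Of its other 4 probe sets 3 moved down, by -0.15 to -0.30, and 1 moved by 0.02. Rtp4 and Xaf1 differed by -0.50 ± 0.16 and -0.36 ± 0.08 (adjusted p = 0.0181 and 0.00356), and the Rtp4 call was lost without P29 room-air replicate 2 (-0.44).

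The ADP-ribosyltransferase Parp14 read 8.59, 8.58 and 8.54 in P29 hyperoxia, against 9.10 and 9.21 in room air (-0.58 ± 0.10, adjusted p = 0.000462), and its partner Parp9 moved by -0.43 ± 0.08 (adjusted p = 0.000983). Usp18, at 7.99, 8.21 and 8.09 against 8.34 and 8.19, was not called (-0.16 ± 0.12, adjusted p = 0.261). Among the GTPases Gbp2 read 9.91, 9.89 and 9.75, against 10.35 and 10.32 (-0.49 ± 0.10, adjusted p = 0.00157), and its second probe set moved by -0.76. Irgm2 moved by -0.49 ± 0.10 (adjusted p = 0.00205) and Irgm1 by -0.36 ± 0.11 (adjusted p = 0.0173). The Irgm1 call was lost without P29 room-air replicate 2 (-0.31) or hyperoxia replicate 2 (-0.29). Gbp7 and Igtp were not called (-0.04 ± 0.11 and -0.11 ± 0.11, adjusted p = 0.766 and 0.399), though a dimmer probe set of Gbp7 moved by -0.61.

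**Figure D3:**
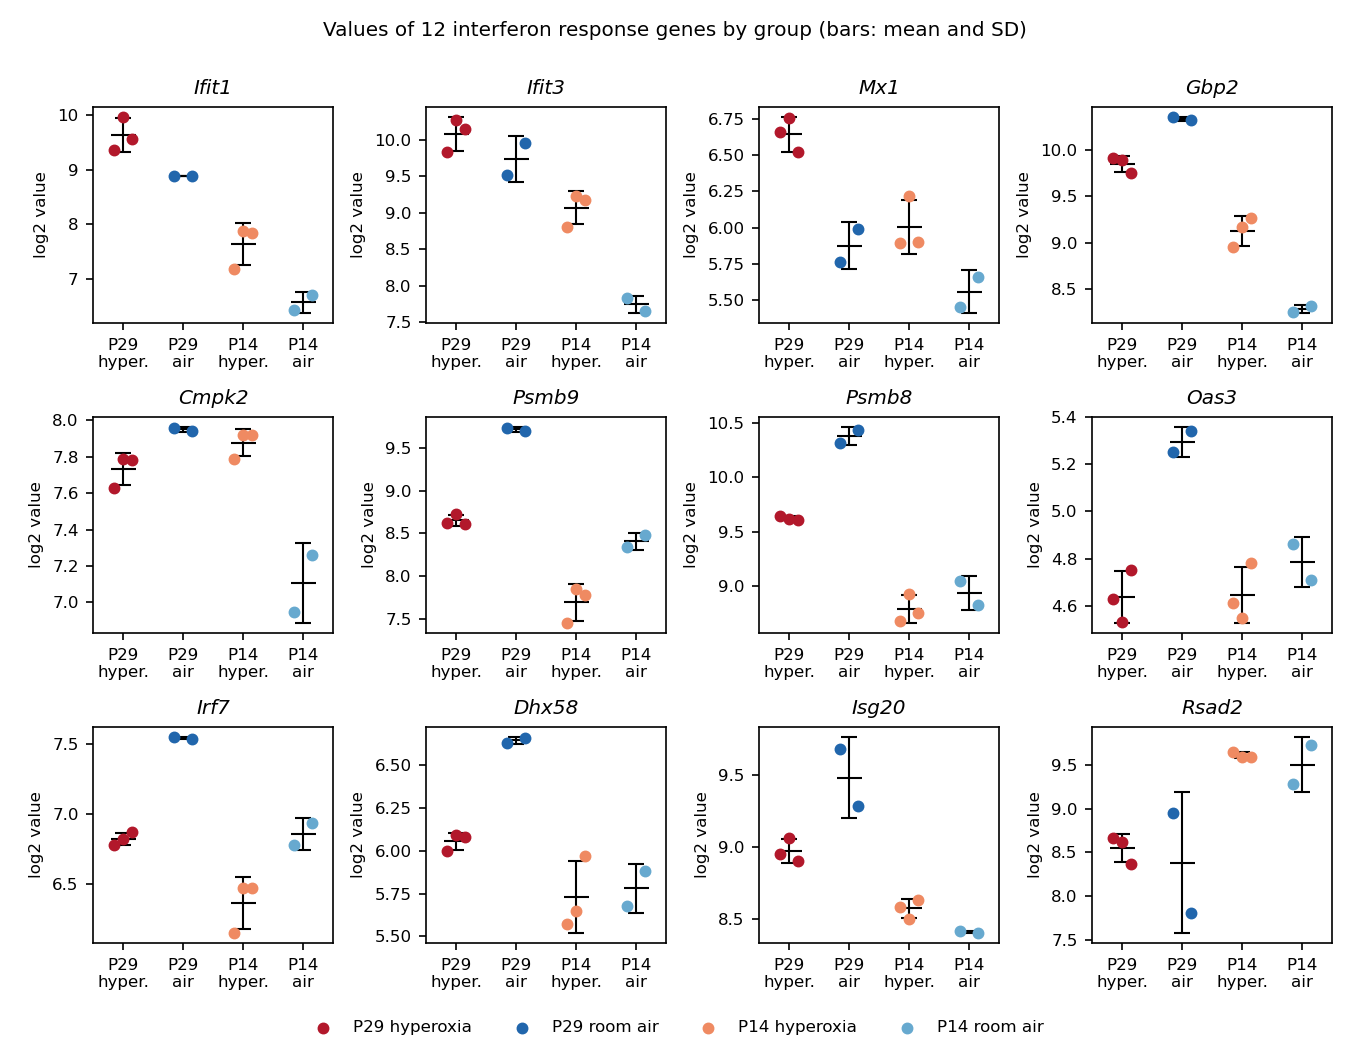
Log2 value of 12 of the genes on each array (points) by group, with the mean and SD of the group in black. Ifit1 and Mx1 are higher in P29 hyperoxia than in P29 room air, Psmb9, Psmb8, Oas3, Irf7, Dhx58 and Isg20 are lower, and Rsad2 is highest at P14.

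At P14 the set did not move one way. In hyperoxia 13 of 41 genes were higher than in room air and 8 were lower, against 32.3% and 22.8% of all genes tested, so both counts (31.7% and 19.5%) were near the background, and 55% of all genes were called in either direction. The median was -0.01, and 0.04 over all genes. Hyperoxia arrays lay wholly above the room-air arrays for 14 genes and wholly below for 10, as for 39.6% and 31.7% of all genes. Scaling to the same 75th percentile gave 8 higher and 14 lower members, and 35.4% of all called genes were then higher in place of 58.6%, with a median of -0.14 over all genes. With the actin term 0 members were higher (3 at an unadjusted p under 0.05) and 4 lower. Of all 14988 genes, 812 were then called higher and 579 lower, or 9.28% in either direction. Of the 8 lower genes, Irf7, Tap1 and Psmb9 stayed called. Without P14 hyperoxia replicate 1, or without either P14 room-air array, 5 genes were lower in place of 8.

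Of the 13 genes that rose at P14, 3 were IFIT genes and 2 were guanylate-binding proteins, and these 5 are given first. Ifit3 read 8.81, 9.23 and 9.18 in P14 hyperoxia, against 7.83 and 7.66 in room air, a difference of 1.33 ± 0.17 or 2.51-fold (adjusted p = 9.24e-05). Ifit1 rose by 1.07 ± 0.21 (adjusted p = 0.00153). In both genes hyperoxia replicate 1 was the lowest of its group and still above both room-air arrays. Ifit2 read 8.74, 8.78 and 8.74 in P14 hyperoxia, against 8.35 and 8.35 (0.40 ± 0.11, adjusted p = 0.0106, not called without room-air replicate 1, at 0.41). Gbp3 read 7.77, 8.23 and 8.20, against 7.10 and 7.13 (0.96 ± 0.13, adjusted p = 0.000142). Gbp2 read 8.95, 9.17 and 9.26, against 8.25 and 8.31, a difference of 0.85 ± 0.10 (adjusted p = 5.7e-05), and its second probe set moved by 0.40. Every hyperoxia array of these 5 genes was above every room-air array.

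Ifih1 read 8.54, 8.76 and 8.76 in P14 hyperoxia, against 8.07 and 8.09 in room air, a difference of 0.60 ± 0.09 (adjusted p = 0.000226). Cmpk2 read 7.79, 7.92 and 7.92 against 6.95 and 7.26, a difference of 0.77 ± 0.10 (adjusted p = 0.00012). A second, dimmer Cmpk2 probe set moved the opposite way, by -0.51, and the mean of both was not called. Ifi35, an interferon-induced leucine zipper protein, read 10.75, 10.80 and 10.87 against 10.13 and 10.40 (0.54 ± 0.09, adjusted p = 0.000447), while its other probe sets moved by -0.24 and -0.07 and the mean of all was not called. Igtp rose by 0.50 ± 0.11 (adjusted p = 0.00294). Smaller rises were called for Mx1 (0.45 ± 0.13), Bst2 or tetherin, which holds budding virus at the cell surface (0.36 ± 0.11), Usp18 (0.32 ± 0.12) and Samhd1 (0.24 ± 0.09). Without P14 room-air replicate 1 the first 3 of these were 0.35, 0.33 and 0.19 and were not called, and without room-air replicate 2 Samhd1 was 0.12 and not called.

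The genes that fell at P14 were again led by Psmb9. It read 7.45, 7.85 and 7.78 in P14 hyperoxia, against 8.34 and 8.48 in room air, a difference of -0.72 ± 0.11 (adjusted p = 0.000349). Irf7 read 6.15, 6.47 and 6.47 against 6.78 and 6.94 (-0.50 ± 0.10, adjusted p = 0.00225). Zbp1 read 5.87, 6.01 and 5.92 against 6.48 and 6.29 (-0.45 ± 0.09, adjusted p = 0.00165). In these 3 genes the hyperoxia arrays lay wholly below the room-air arrays at both ages. Of all genes, 31.7% did so at P14 and 33.1% at P29. Oas2 read 6.18, 6.13 and 6.31 against 6.68 and 6.45 (-0.36 ± 0.09, adjusted p = 0.00661, not called without room-air replicate 1, at -0.25). Eif2ak2 read 7.11, 6.98 and 6.72 against 7.63 and 7.37 (-0.56 ± 0.12, adjusted p = 0.00301), but its other probe sets moved by 0.39 and 0.10 and the actin term turned the sign, to 0.032. Tap1 read 6.82, 7.07 and 7.26 against 7.30 and 7.47, a difference of -0.34 ± 0.12 (adjusted p = 0.0328). Ddx58 moved by -0.26 ± 0.09 (adjusted p = 0.0338) and Irgm1 by -0.30 ± 0.11 (adjusted p = 0.0462). Each of these last 3 calls was lost without P14 hyperoxia replicate 1, at -0.22 for all 3, and under 3 or more of the other omissions. Without P14 room-air replicate 2 the Irgm1 value was -0.18. The other probe sets of Ddx58 moved by 0.20 and -0.06.

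**Figure D4:**
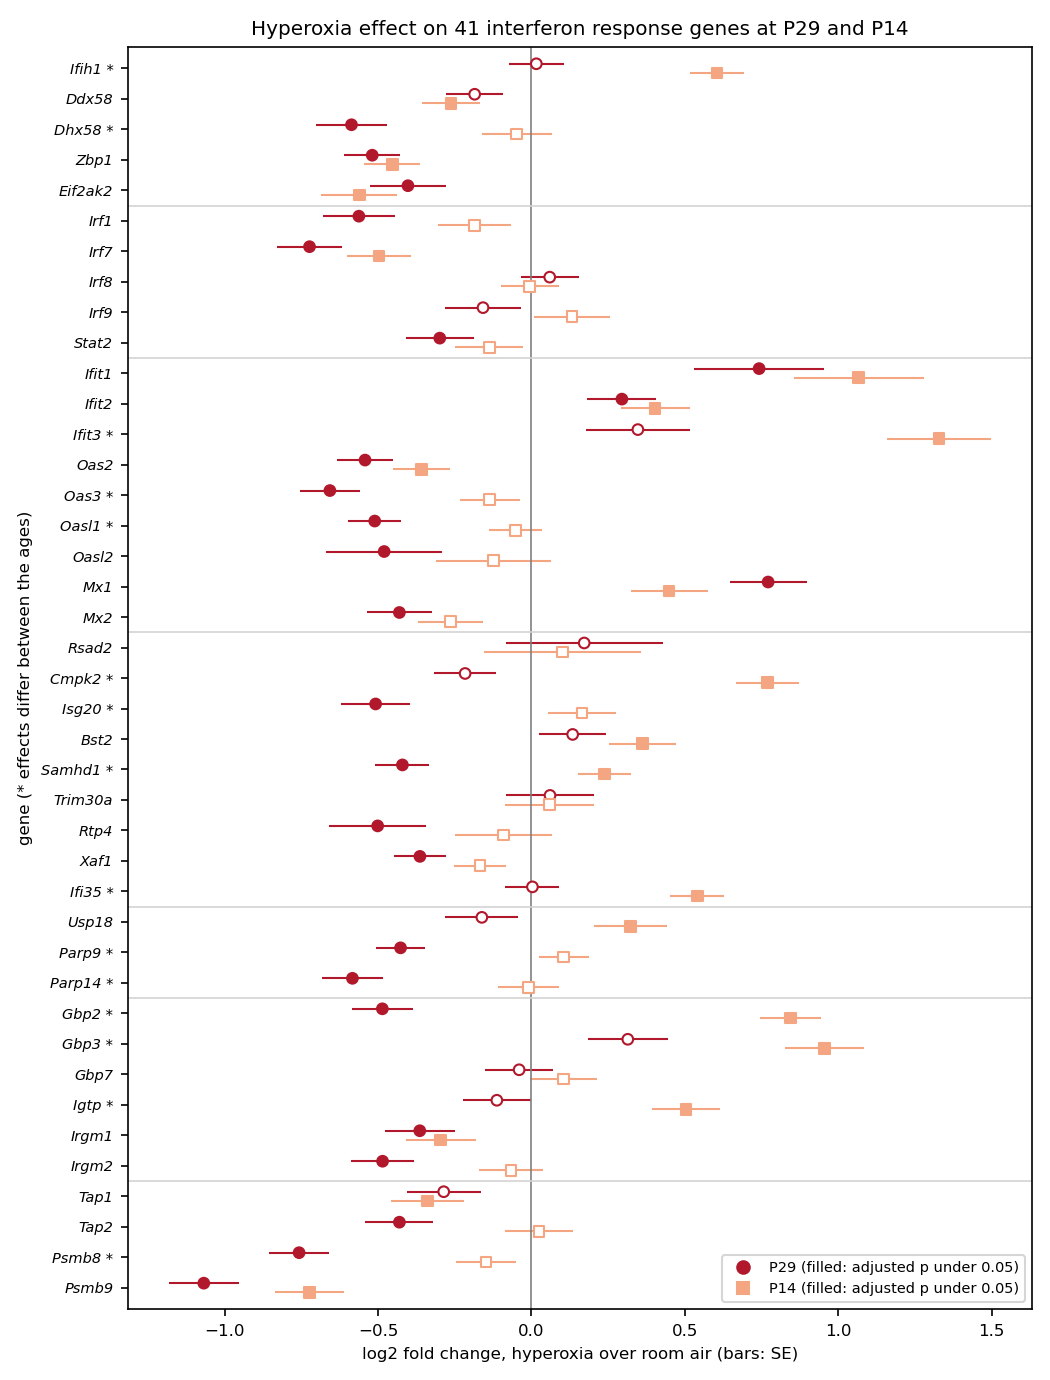
Log2 difference hyperoxia minus room air of each gene (rows, by role) at P29 (circles) and P14 (squares), with SE; filled symbols passed limma at an adjusted p under 0.05, and a star marks genes whose effects differ between the ages. The starred genes all have the P29 symbol left of the P14 symbol.

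Across both ages, whose comparisons share no array, 3 genes were called higher in hyperoxia at P29 and at P14 (Ifit1, Ifit2 and Mx1) and 6 were called lower at both (Zbp1, Eif2ak2, Irf7, Oas2, Irgm1 and Psmb9). Of all genes tested, 22.3% were called higher at both ages and 14.2% lower at both, so the 6 of 41 lower at both is near the background. Gbp2 and Samhd1 were lower at P29 and higher at P14, as were 1.45% of all genes. A further 15 genes passed at P29 as lower and were not called at P14, against 9.9% of all genes. Another 8 passed at P14 as higher and were not called at P29, against 8.55%. Irf8, Irf9, Rsad2, Trim30a and Gbp7 were called at neither age, against 24.4% of all genes. Whether the response itself differed between the ages was tested directly. The hyperoxia effect was lower at P29 than at P14 for 15 of 41 genes, against 11.6% of all genes tested, and higher for 0 by limma (0 also at an unadjusted p under 0.05), against 11%. The median difference of effects was -0.36, and 0.00 over all genes. Sex of the RNA was not balanced between the groups of this test, and its part was not tested. Age and length of exposure cannot be told apart in it either. Without Oas3 the effect was lower at P29 for 14 of 40 genes. The count was 22 without P14 hyperoxia replicate 1, where 1567 of 14988 genes were lower. It was 10 without P29 room-air replicate 2, where 1387 were. Fewer members were called with P29 hyperoxia replicate 2 or replicate 1 alone, as were fewer of all genes. The median difference of effects was then -0.27 with replicate 2, and 0.01 over all genes. With replicate 1 it was -0.33, and -0.02 over all genes.

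Gbp2 showed the largest such difference, -1.33 ± 0.14 (adjusted p = 0.000105), the sum of its P14 rise and its P29 fall. Cmpk2 followed at -0.99 ± 0.14 (adjusted p = 0.000725), and here both probe sets had a lower effect at P29, the second by -0.70. Ifit3 differed by -0.98 ± 0.24 (adjusted p = 0.0128), and was not called without P14 room-air replicate 2 (-0.90) or P29 room-air replicate 2 (-0.76). Isg20 and Samhd1 differed by -0.67 ± 0.16 and -0.66 ± 0.12 (adjusted p = 0.0106 and 0.00333), and all of the 4 further Samhd1 probe sets were lower too, by -0.17 to -0.89. Other members with a lower effect at P29 were Gbp3 (-0.64), Igtp (-0.62), Psmb8 (-0.61), Ifih1 (-0.59), Parp14 (-0.57), Dhx58 (-0.54), Ifi35 (-0.54), Parp9 (-0.53), Oas3 (-0.52) and Oasl1 (-0.46), with adjusted p from 0.00644 to 0.034. Of these 10, Ifih1, Psmb8, Ifi35 and Parp9 were called under every omission of 1 array. Calls were lost without P14 room-air replicate 2 for Oas3 (-0.45) and Oasl1 (-0.43), and without P14 room-air replicate 1 for Igtp (-0.57). They were also lost without P29 room-air replicate 2 for Oas3 (-0.48) and Parp14 (-0.52), and without P29 room-air replicate 1 for Oasl1 (-0.35) and Igtp (-0.60). Dhx58 and Gbp3 were lost under 5 and 7 omissions, at -0.44 to -0.55 and -0.55 to -0.66. No transcription factor was among the 15, and Psmb9, at -0.35 ± 0.16 (adjusted p = 0.151), was not either. Since the same 4 group means enter, this difference equals that between the age differences in hyperoxia and in room air. Of the 15 genes, 11 rose with age in both atmospheres, while Oasl1, Cmpk2 and Samhd1 were called higher with age in room air and not in hyperoxia. The fourth, Oas3, showed the same calls, which its passage of the filter favoured.

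The genes around the set were read from lists of the same pathway. With the actin term, 36 of the 66 called results of these lists (both hyperoxia comparisons and their difference) were lost and 2 changed sign, so values that lost their call are named in each paragraph. Of 13 interferons and interferon-inducing cytokines, 5 were measured. Ifnb1 and Ifng, the main type I and type II ligands, lay below the filter. Il18, which makes T and natural killer cells release interferon gamma, read 8.59, 8.46 and 8.55 in P29 hyperoxia, against 9.68 and 9.86 in room air, a difference of -1.24 ± 0.13 (adjusted p = 1.48e-05). It was not called at P14 (-0.23 ± 0.13, adjusted p = 0.15). Il12a, a subunit of the cytokine that drives interferon gamma, differed at P29 by -0.91, but like Oas3 it passed the filter only through the P29 room-air arrays. The Ifna1 and Ifna2 probe sets, of dim signal, were lower at P29 by -0.72 and -0.56, but these genes belong to a family of near-identical copies, so their identity is uncertain. With the actin term Il18 (-1.15) and Ifna1 (-0.71) stayed called at P29 and Ifna2 (-0.34) and Il12a (-0.72) did not.

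Of 14 receptor and signalling genes, 3 were higher and 6 lower in hyperoxia at P29, against 34.2% and 25.6% of all genes, and 6 were higher and 4 lower at P14, against 32.3% and 22.8%. With the actin term it was 1 and 3 at P29, and 0 (1 at an unadjusted p under 0.05) and 1 at P14. Of all 14988 genes, that term left 1628 higher and 1277 lower at P29, and 812 and 579 at P14. Ifngr2, a subunit of the interferon-gamma receptor, read 7.87, 7.78 and 7.87 in P29 hyperoxia against 8.63 and 8.67 in room air, and 7.74, 7.85 and 7.58 in P14 hyperoxia against 8.58 and 8.54 in room air. All hyperoxia arrays thus lay below all room-air arrays at both ages, with differences of -0.81 ± 0.09 at P29 and -0.84 ± 0.09 at P14 (adjusted p = 2.51e-05 and 3.05e-05). Ifngr1, the other subunit, was lower at P29 (-0.61 ± 0.11, adjusted p = 0.000815) and not called at P14 (-0.01 ± 0.11, adjusted p = 0.945). The kinase Jak1, shared by all interferon receptors, was lower at both ages, by -0.71 ± 0.08 at P29 and -0.48 ± 0.08 at P14 (adjusted p = 3.3e-05 and 0.000613), of which the P14 call was lost over the mean of its probe sets (-0.37). Inhibitors of the pathway were divided. Socs3, an inhibitor of cytokine receptor kinases, was higher by 0.85 ± 0.18 at P29 and 1.79 ± 0.18 at P14 (adjusted p = 0.00211 and 2.45e-05), though the mean of its probe sets was not called at P29 (0.38). Ptpn2, a phosphatase that acts on Jak and Stat proteins, was higher by 1.12 ± 0.11 and 0.79 ± 0.11 at the same ages (adjusted p = 9.21e-06 and 0.000144). Socs1, a further inhibitor, was lower, at -0.42 ± 0.14 and -0.67 ± 0.14 (adjusted p = 0.0206 and 0.00195), and the first of these was not called without P29 room-air replicate 1 (-0.35) and was -0.27 without P29 hyperoxia replicate 2. Of these genes Ifngr2 (-0.55), Jak1 (-0.61) and Ptpn2 (0.85) stayed called at P29 with the actin term, and Ifngr1 (-0.51), Socs1 (-0.45) and Socs3 (0.34) did not. At P14 none of the 5 called did, at -0.57 for Ifngr2, -0.37 for Jak1, -0.69 for Socs1, 1.24 for Socs3 and 0.50 for Ptpn2.

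Of the 16 measured genes of nucleic acid sensing upstream of interferon, 4 were higher and 4 lower at P29, and 2 were higher and 4 lower at P14. Of all genes, 34.2% were higher and 25.6% lower at P29 and 32.3% and 22.8% at P14, so the shares of this list were near or under the background. Irf3, which starts interferon transcription, moved by -0.36 ± 0.09 at P29 and -0.65 ± 0.09 at P14 (adjusted p = 0.00746 and 0.000212). Mavs, the mitochondrial adaptor of Ifih1 and Ddx58, moved by -0.30 ± 0.08 and -0.54 ± 0.08 (adjusted p = 0.00701 and 0.000227), and the mean of its probe sets was not called at P29 (-0.11). Of 8 MHC class I genes and regulators, 6 were lower at P29 and 5 at P14, against 25.6% and 22.8% of all genes. H2-K1 read 12.17, 12.02 and 12.16 in P29 hyperoxia, against 13.73 and 13.40 in room air (-1.45 ± 0.10, adjusted p = 1.31e-06), and 11.27, 11.33 and 11.22 in P14 hyperoxia, against 12.10 and 11.98 (-0.77 ± 0.10, adjusted p = 0.000142). H2-D1 differed by -1.39 ± 0.11 at P29 and -0.86 ± 0.11 at P14 (adjusted p = 2.44e-06 and 9.68e-05). These are highly alike, polymorphic genes and the probes were not designed for ICR alleles, so signal may be shared between them. Psmb10, the third immunoproteasome subunit, was lower by -0.78 ± 0.08 and -0.56 ± 0.08 (adjusted p = 1.55e-05 and 0.000191). Erap1, a peptide trimmer of the same pathway, was the exception, higher by 0.53 ± 0.08 and 0.70 ± 0.08 (adjusted p = 0.00033 and 6.99e-05). With the actin term the calls of Irf3 and Erap1 stayed at both ages, that of Mavs at P14 alone (-0.74, and -0.49 at P29), and those of H2-K1, H2-D1 and Psmb10 at P29 alone (-0.53, -0.53 and -0.62 at P14).

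Of the 4 interferon-inducible chemokines, 2 were higher, 1 lower and 1 not called at P29, against 34.2% and 25.6% of all genes called higher and lower. Cxcl9, which interferon gamma induces, read 7.13, 6.55 and 6.58 in P29 hyperoxia, against 5.42 and 5.97 in room air, a difference of 1.06 ± 0.20 (adjusted p = 0.000843). It was not called at P14 (-0.09 ± 0.20, adjusted p = 0.703). Cxcl10 was higher at both ages, by 0.73 ± 0.17 at P29 and 0.48 ± 0.17 at P14 (adjusted p = 0.00332 and 0.031). The P14 call was lost without either P14 room-air array (0.47 and 0.49) and without P14 hyperoxia replicate 2 (0.46) or 3 (0.42). Cxcl11 was called at neither age (0.12 ± 0.10 and 0.09 ± 0.10, adjusted p = 0.342 and 0.487). Ccl5, a chemokine of T and natural killer cells, read 6.77, 7.07 and 6.83 in P29 hyperoxia, against 8.32 and 8.11 in room air (-1.32 ± 0.11, adjusted p = 3.69e-06). With the actin term Ccl5 stayed called at P29 (-1.44), while Cxcl9 (1.10) and Cxcl10 (0.46 at P29 and 0.19 at P14) did not.

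Markers of blood cells and of the lung wall were read beside the set. At P29, 25.6% of all genes were lower in hyperoxia and 34.2% higher. Lower were 9 of 10 T and natural killer cell markers, 4 of 4 B and plasma cell markers and 4 of 5 neutrophil markers. Of 7 macrophage and monocyte markers 3 were lower and 1 was higher. Among these 3, Siglecf (-2.85) passed the filter only through the P29 room-air arrays, which favoured its lower value. Of the lung endothelial markers 4 of 6 were lower, with a mean log2 value of 10.53 to 10.72 in P29 hyperoxia and 11.71 to 11.78 in P29 room air, and 3 of 5 epithelial markers were lower, at 13.13 to 13.28 and 13.93 in the same groups. At P14, 2 of 6 endothelial and 2 of 5 epithelial markers were lower and 1 of each was higher, against 22.8% and 32.3% of all genes. With the actin term, 1277 of all 14988 genes were lower at P29. The marker counts lower were then 6 T and natural killer, 4 B and plasma and 4 neutrophil markers. Those of the macrophage, endothelial and epithelial lists were 2, 3 and 2. At P14 that term left 0 endothelial (1 at an unadjusted p under 0.05) and 1 epithelial marker lower, against 579 of all 14988 genes. None of either was higher (1 epithelial unadjusted). The mean log2 value of the T and natural killer markers was 5.79 to 5.88 in P29 hyperoxia, 7.16 to 7.20 in P29 room air, 5.46 to 5.52 in P14 hyperoxia and 6.0 to 6.03 in P14 room air. That of the neutrophil markers was 6.65 to 6.78, 8.43 to 8.92, 6.78 to 6.87 and 8.05 to 8.08 in the same groups, and that of the B cell markers 5.61 to 5.77, 7.68 to 8.08, 5.61 to 5.86 and 6.33 to 6.43. The plasmacytoid and classical dendritic cell markers had a mean of 6.76 to 6.85 in P29 hyperoxia against 6.48 to 6.57 in room air. Of these 7, 2 were higher by limma, against 34.2% of all genes, and 0 lower. Their median difference was only 0.04, and the largest was that of Itgae (1.62), not called with the actin term (1.46). Over the whole set of 41 genes the mean was 8.41 to 8.43 in P29 hyperoxia, 8.65 to 8.69 in P29 room air, 7.72 to 7.96 in P14 hyperoxia and 7.73 to 7.78 in P14 room air. The set and the lymphoid and neutrophil lists were all highest in P29 room air. In P14 hyperoxia, the set reached or passed its level in room air on 2 of 3 arrays, while those marker lists were below theirs on all 3. The part of these cells in the results was not tested.

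**Figure D5:**
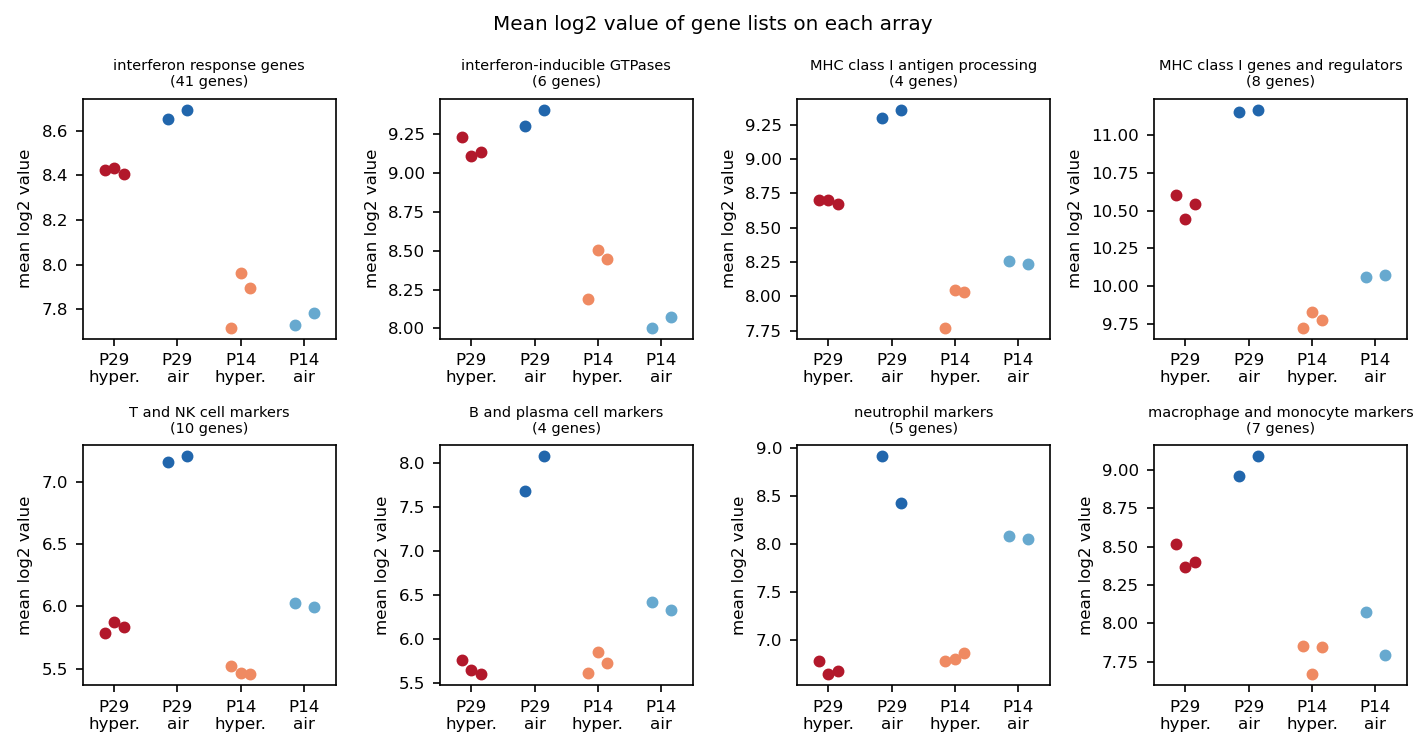
Mean log2 value of 8 gene lists on each array (points) by group; each panel has its own vertical scale and the mean is over the genes named in the panel title. P29 room air is highest in all 8 panels, and the T and natural killer, B and neutrophil panels are lower in hyperoxia at both ages. The macrophage panel includes Siglecf, which passed the filter only through the P29 room-air arrays.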

How the data were processed

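Each of the 10 lung RNA samples has 1 Affymetrix array, and its title gave its group and replicate number. The values are the log2 intensities that the authors deposited. Per the submitters' processing notes, Partek 6.4 and GCRMA were used, with settings not given in the sources used here. Values ranged from 2.51 to 15.00. Of 45101 probe sets, 34945 had 1 gene symbol, 932 several and 9211 none, and only the first were used, without Affymetrix controls. The brightest probe set over the 10 arrays stood for each of 18193 genes, and 14988 genes that reached a log2 value of 5 on 2 arrays entered the tests.

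With limma 3.58.1, run under R 4.3.3, lmFit estimated the 4 group means and eBayes moderated the variances (6 residual and 5.09 prior degrees of freedom). Tests were two-sided and adjusted by Benjamini-Hochberg over all 14988 genes, with a threshold of 0.05. The steps were tested on simulated data. Per hyperoxia comparison, values on every array were given for the 5 largest rises and 5 largest falls called, and per role for the members of smallest and largest p at P29. Further arrays were printed for Rsad2, chosen after its values were seen. The members, the gene lists of the pathway and the cell markers were chosen with earlier results of these data known. Alternatives were other filters, the mean of a gene's probe sets, another variance model, fits of the compared groups alone, 2 scalings, a replicate block, an actin 3′ minus 5′ term, P29 hyperoxia replicate 2 as its group's lone array, and leaving out each array; replicate 1 as lone array was added after seeing the data. Same-numbered arrays of different groups had deviations that correlated at -0.10 to 0.20, with 2 of 13 pairs over 0.1, so the numbers were not taken as pairs. Promoter windows were those of RefSeq GRCm38.p6. No genome build is named for the array.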

Additional observations from a re-analysis of the deposited data

Results flagged for a closer look

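The response to hyperoxia differed between the ages, by limma's test of the difference itself, for 15 of 41 members and for 12 genes of the pathway lists. Of all genes tested, 11% were called higher and 11.6% lower, or 22.5% in either direction. By list, 4 of 5 ligands and cytokines, 4 of 14 receptor and signalling genes and 2 of 8 class I genes were lower. Of 4 chemokines 1 was higher and 1 lower, and of 16 nucleic acid sensing genes 0 were called. The value given is the effect at P29 minus that at P14. Among members it was -0.59 for Ifih1, -0.54 for Dhx58, -0.98 for Ifit3, -0.52 for Oas3, -0.46 for Oasl1, -0.99 for Cmpk2, -0.67 for Isg20 and -0.66 for Samhd1. It was -0.54 for Ifi35, -0.53 for Parp9, -0.57 for Parp14, -1.33 for Gbp2, -0.64 for Gbp3, -0.62 for Igtp and -0.61 for Psmb8.

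Among the ligands and inducing cytokines it was -0.72 for Ifna1, -0.55 for Ifna2, -1.01 for Il18 and -0.63 for Il12a. Among receptors and their regulators it was -0.60 for Ifngr1, -0.60 for Ifnlr1, the receptor of type III interferon, -0.35 for Il10rb, its partner, and -0.94 for Socs3. For the chemokines it was 1.15 for Cxcl9, the only one of the 27 with a higher effect at P29, and -1.05 for Ccl5, and for the class I molecules -0.68 for H2-K1 and -0.53 for H2-D1. The groups held 2 or 3 arrays, too few to single out an array within a group. Several of these calls rest on single arrays: Cxcl9 was not called without P14 room-air replicate 1 (0.95) or P29 room-air replicate 1 (0.88), Socs3 without the same arrays (-0.75 and -0.70) or P14 hyperoxia replicate 3 (-0.84), and Ifngr1 and Ifna2 without P14 room-air replicate 2 (-0.51 and -0.48) or P29 room-air replicate 1 (-0.47 and -0.46). Il12a, Il10rb and H2-D1 were lost under 6, 8 and 5 of 10 omissions. Oas3 and Il12a passed the filter only through the P29 room-air arrays, which favoured their values.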

How the results depend on the processing

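The rise with age was the most stable count, at 34 to 38 members in room air and 29 to 35 in hyperoxia with any 1 array left out, and 1 member lower in hyperoxia in each case, with 0 to 1 lower in room air (0 without P14 room-air replicate 2). With P29 hyperoxia replicate 2 as lone array 21 were higher and 0 lower in hyperoxia, and with replicate 1 it was 24 and 0. At P29, 2 to 4 members were higher and 18 to 24 lower without 1 array. The actin term gave 0 higher and 11 lower, and replicate 1 as lone array 1 higher. At P14, 9 to 13 were higher and 5 to 9 lower without 1 array, 8 and 14 under 75th percentile scaling, and 0 and 4 with the actin term. For the difference of effects, 0 were higher and 10 to 22 lower without 1 array. Fewer were lower when P29 hyperoxia was replicate 2 or replicate 1 alone, with medians of -0.27 and -0.33. The replicate block gave 12 higher and 8 lower members at P14, at P29 3 higher and 24 lower, 15 lower for the difference, and 38 and 33 higher with age, and lost 3 of 135 called member results. Eif2ak2 changed sign with the actin term at P14 (0.032) and P29 (0.15) and over the mean of its probe sets at P29 (0.069). Of pathway genes, Ifnar1 at P14 (0.036) and Tlr3 at P29 (-0.046) changed sign with the actin term, and Jak2 at P14 (-0.018) and Traf6 at P29 (-0.16) over the mean of probe sets. The cause of these changes was not tested.

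Of 135 called member results, 33 were lost and 2 reversed with the actin term, 12 lost and 1 reversed over the mean of probe sets, 7 lost under 75th percentile scaling and 4 under quantile normalization. Of 66 called results of the pathway lists, 36 were lost and 2 reversed with the actin term, 6 lost and 2 reversed over the mean of probe sets, and 10 lost under 75th percentile scaling. Members had 28 further probe sets, of which 22, of 15 members, passed the filter, and of these 10 had the opposite sign at P14 and 8 at P29, against 4 and 2 for age in room air and in hyperoxia. Dim probe sets such as that of Oas3 lie near the filter of 5, where intensities change little with RNA amount.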
